A study of Mus musculus with 27 samples.

Results

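The joins described here link a break in the immunoglobulin heavy chain locus on mouse chromosome 12 to a different chromosome and carry a short stretch of bases that neither partner's alignment accounts for. A join was a member when the prey aligned outside chromosome 12 and the read held 1 to 20 bases between the end of the bait alignment and the start of the prey alignment. Joins in 5 recurrent windows of 10 kb were left out. Of 193201 joins in all, 39296 were interchromosomal and 37432 of these lay outside the 5 windows. Among them 3526 (9.42%) were members, 5753 were direct (neither shared nor inserted bases), 20668 had microhomology (bases shared by both alignments) and 7485 had gaps above 20 bases. Most of those longer gaps, 6916, were in read pairs that had not been merged (no read length deposited). At the limit of the rule, 104 members had 20 inserted bases and 57 joins just outside it had 21.

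The study sequenced joins of breaks just 5′ of Sμ, the donor region of class switching, after 72 h of stimulation. The cells were CH12F3, a B-cell line from mouse that changes its antibody class from IgM to IgA. The method, LAM-HTGTS, reads outward from a fixed bait sequence into the DNA joined to it, the prey. WT was the parental line, 1 clone. There were 2 clones of each mutant genotype (PAXX-/-, XLF-/-, XLF-/-PAXX-/- and Ligase4-/-) and 3 libraries of every clone, and the XLF-/-PAXX-/- clones descend from a PAXX-/- clone. All groups share the CH12F3 background, 1 Ligase4-/- clone came from another laboratory, and the mutant alleles are not described in the sources used.

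Classical non-homologous end joining holds broken ends with Ku, aligns them with XLF, XRCC4 and PAXX and seals them with DNA ligase 4. Bases can be gained at a join when a polymerase adds them without a template, when it copies DNA nearby before the ends are sealed, or when a further fragment is captured. Cells without ligase 4 still form joins by alternative end joining, which is known for microhomology and for templated insertions.

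Libraries held 3610 to 14524 joins and 33 to 360 members. WT was the thinnest group, with 124 members. There were 614 in PAXX-/-, 605 in XLF-/-, 819 in XLF-/-PAXX-/- and 1364 in Ligase4-/-, of which 1034 came from Ligase4-/- clone 1. The libraries were sequenced in 8 runs, by the names of their reads. Runs 5 and 6 held both PAXX-/- and XLF-/- libraries. In each of the other runs lay 1 genotype only, so its effect and that of the run cannot be told apart in any comparison with WT, XLF-/-PAXX-/- or Ligase4-/-. WT being a single clone, its comparisons also do not cover the spread between clones. Every comparison by library, including those between mutants, pools the libraries of 2 clones per mutant genotype, so its p-value does not cover the spread between clones of a genotype. The tests over clones treat the clones as independent, although the XLF-/-PAXX-/- clones descend from a PAXX-/- clone. The mm9 letters that the authors deposited for each junction equalled the first 10 prey bases of the read in 91.4% of members.

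The following reads represent the kinds of member that carry the findings, and each is printed from the bait through the insertion into the prey. The insertion is in capitals and the flanking bait (left) and prey (right) are in lower case. The first kind repeats the bait itself, inverted. Its template, bait positions 50 to 59 (chr12:114664855-114664864, minus strand, mm9; position 1 is the first base of the longest bait alignment, 114664913), and the longest such insertion are the capitals in this line.
Bait with inverted copy: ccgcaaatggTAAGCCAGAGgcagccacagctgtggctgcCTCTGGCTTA
Inverted copy, 3 bases, prey on chromosome 9 at 76774899: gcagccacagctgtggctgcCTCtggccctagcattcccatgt
Inverted copy, 7 bases, prey on chromosome 9 at 61595790: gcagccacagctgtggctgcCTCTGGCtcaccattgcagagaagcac
Inverted copy, 8 bases, prey on chromosome 13 at 32652600: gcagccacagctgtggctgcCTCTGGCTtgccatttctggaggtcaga
Inverted copy, 9 bases, prey on chromosome 1 at 129628949: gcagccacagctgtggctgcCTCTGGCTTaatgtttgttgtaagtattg

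The second kind continues the bait after 1 changed base, and the third ends in the same letters before a GA repeat. The fourth is the member at the median length of its genotype, first in file order. It is printed for PAXX-/-, XLF-/- and Ligase4-/-, where it has no such feature. In WT that member, ACTGGAAT with its prey on chromosome 10, is itself of the third kind. The WT and XLF-/-PAXX-/- members are not printed. The printed reads show what was counted as an inserted base.
Bait continuation, 3 bases, prey on chromosome 8 at 64123299: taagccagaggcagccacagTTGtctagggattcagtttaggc
Bait continuation, 5 bases, prey on chromosome 16 at 69602541: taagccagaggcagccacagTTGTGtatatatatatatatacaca
Before a GA repeat, 7 bases, prey on chromosome 1 at 78885265: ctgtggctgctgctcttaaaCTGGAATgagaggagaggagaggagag
Before a GA repeat, 11 bases, prey on chromosome 11 at 23810853: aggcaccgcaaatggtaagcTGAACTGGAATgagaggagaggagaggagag
Median length in PAXX-/-, prey on chromosome 1 at 181992814: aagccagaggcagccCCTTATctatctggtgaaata
Median length in XLF-/-, prey on chromosome 13 at 75238838: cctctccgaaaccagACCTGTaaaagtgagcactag
Median length in Ligase4-/-, prey on chromosome 11 at 61469425: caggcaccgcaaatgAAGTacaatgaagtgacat

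Insertions were as short as 1 base in 18.5% of members, 2 to 5 bases in 34.8%, 6 to 10 in 19.3% and 11 to 20 in 27.3%. The median over all members was 5 bases. Lengths differed most at the long end. Insertions of 11 to 20 bases made up 42.4%, 46.7% and 45.7% of members in the WT libraries, a mean of 44.9% ± 2.22 (SD, n = 3 libraries). XLF-/-PAXX-/- clones had 22.5% ± 1.92 and 22.9% ± 3.99, PAXX-/- clones 27.7% ± 8.94 and 30.2% ± 1.43, XLF-/- clones 28.3% ± 1.45 and 32.3% ± 6.23, and Ligase4-/- clones 25.3% ± 2.18 and 30.1% ± 7.33. Every WT library lay above all 24 mutant libraries, of which the highest, XLF-/- clone 2 library 2, had 39.5%. This class was picked out after the lengths were seen, so no test was made of it.

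**Figure D1:**
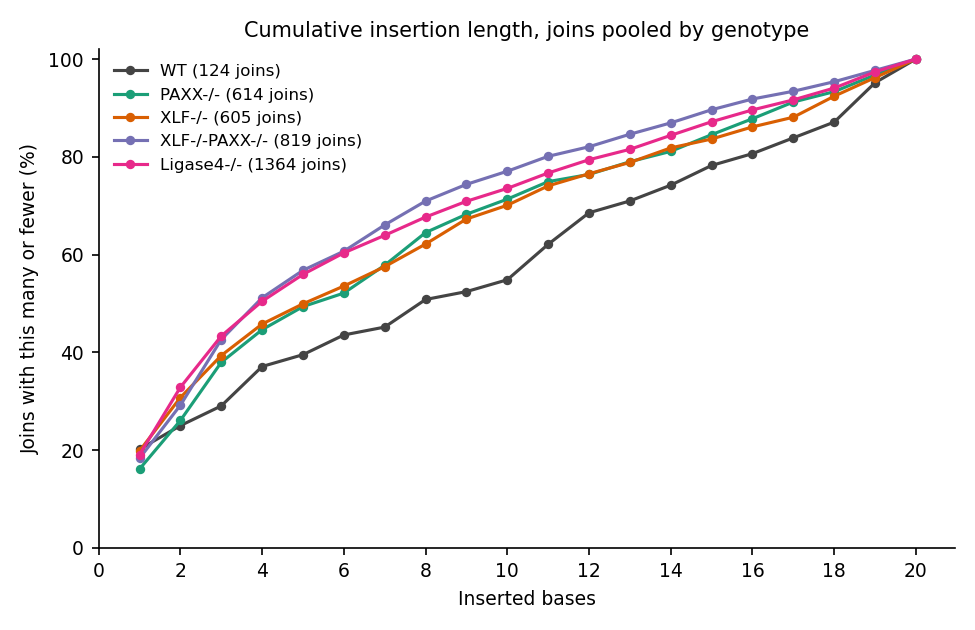
Cumulative percent of members (vertical axis) with a given number of inserted bases or fewer (horizontal axis), members pooled by genotype. The lines start close together, at 16.1% to 20.2% for 1 base, and the WT line, from 124 joins, runs below the others from 2 bases on.

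Mean insertion length was 8.36, 9.49 and 9.02 bases in the 3 WT libraries, 8.96 ± 0.565 (SD, n = 3). PAXX-/- clones had means of 7.20 and 7.76, XLF-/- clones 7.0 and 7.92, XLF-/-PAXX-/- clones 6.52 and 6.5, and Ligase4-/- clones 6.60 and 7.38. WT libraries overlapped only with single libraries of XLF-/- clone 2 (8.48) and Ligase4-/- clone 2 (8.50). Of the variation among the 9 clones 82.8% lay between genotypes (as a share of the total sum of squares, p = 0.0646 by exact permutation, 0.159 adjusted over 27 tests). Any split of the clones into groups puts part of the variation between them. Such shares are therefore to be read with their permutation p-value.

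By library, XLF-/-PAXX-/- insertions were shorter than those of WT by a mean difference of -2.45 bases (6 against 3 libraries, 95% interval -3.28 to -1.62, p = 0.0119 by exact permutation, adjusted p = 0.0804). The differences from WT were -1.47 bases in PAXX-/- (exact permutation p = 0.0119, adjusted p = 0.0804), -1.50 in XLF-/- (exact permutation p = 0.0238, adjusted p = 0.0918) and -1.97 in Ligase4-/- (exact permutation p = 0.0238, adjusted p = 0.0918). XLF-/-PAXX-/- differed from XLF-/- by -0.952 bases (-1.67 to -0.268, 6 against 6 libraries, exact permutation p = 0.0173, adjusted p = 0.0918), and from Ligase4-/- by -0.482 (-1.32 to 0.321, exact permutation p = 0.255). XLF-/- and PAXX-/-, compared within their shared runs, differed by -0.0235 bases (-0.824 to 0.832, exact permutation p = 0.943). The within-run differences were -0.0791 in run 5 and 0.00424 in run 6. None of these length differences passed after adjustment, and 0.0119 is the smallest p that 6 against 3 libraries can give. With insertions limited to 1 to 10 bases, the differences from WT turned to 0.375 in PAXX-/-, 0.135 in XLF-/- and 0.170 in XLF-/-PAXX-/-, and the difference was -0.0675 in Ligase4-/-. The first bait position at which a clone carried a substituted base was 69. Among joins whose bait ended before position 68, PAXX-/- differed from WT by -0.927 bases (exact permutation p = 0.202), and XLF-/-PAXX-/- from XLF-/- by -1.57 (exact permutation p = 0.00433, adjusted p = 0.117). The contrast of XLF-/-PAXX-/- with XLF-/- was -0.488 bases without XLF-/- clone 2 (exact permutation p = 0.167) and -1.42 without XLF-/- clone 1 (exact permutation p = 0.0119, adjusted p = 0.0804).

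The share of interchromosomal joins that were members, among joins with an overlap of -20 or more, was lowest in WT. Its libraries gave 7.16%, 8.93% and 7.73%, 7.94% ± 0.903 (SD, n = 3). PAXX-/- clones gave 11.8% ± 2.19 and 11.5% ± 2.71, XLF-/- 11.9% ± 0.0572 and 10.1% ± 0.455, XLF-/-PAXX-/- 11.96% ± 1.03 and 12.7% ± 1.52, and Ligase4-/- 13.8% ± 1.41 and 10.1% ± 1.34. All 24 mutant libraries except PAXX-/- clone 2 library 1 (8.33%) and Ligase4-/- clone 2 library 1 (8.63%) lay above the WT range. The Ligase4-/- clones did not overlap each other, with 12.2% to 14.9% in clone 1 and 8.63% to 11.3% in clone 2.

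Over the 9 clones, 62.3% of the variation in this share lay between genotypes (exact permutation p = 0.323, adjusted p = 0.581). The difference from WT was 4.402 percentage points in XLF-/-PAXX-/- (2.53 to 6.27, exact permutation p = 0.0119, adjusted p = 0.0804) and 3.04 in XLF-/- (1.54 to 4.67, exact permutation p = 0.0119, adjusted p = 0.0804). It was 3.69 in PAXX-/- (0.214 to 7.09, exact permutation p = 0.0357, adjusted p = 0.121) and 4.02 in Ligase4-/- (0.272 to 7.76, exact permutation p = 0.0476, adjusted p = 0.143). Between XLF-/-PAXX-/- and XLF-/- the difference was 1.36 (interval -0.103 to 2.82, p = 0.0649 by exact permutation, adjusted p = 0.159) and between XLF-/-PAXX-/- and Ligase4-/- it was 0.386 (-2.10 to 2.84, exact permutation p = 0.736). XLF-/- differed from PAXX-/- by -0.646 points within runs (-2.64 to 1.28, exact permutation p = 0.462), with 1.56 in run 5 and -1.75 in run 6. None of the insertion share differences passed after adjustment either.

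These insertion share differences also moved with the part of the bait used and with single clones. Among joins whose bait ended before position 68, PAXX-/- exceeded WT by 0.201 points (p = 0.940, exact permutation test) and XLF-/-PAXX-/- by 2.46 (p = 0.107, exact permutation test). The same joins gave 2.03 points for XLF-/- (p = 0.0714, exact permutation test) and 3.898 for Ligase4-/- (p = 0.0595, exact permutation test). XLF-/-PAXX-/- minus XLF-/- was then 0.429 points (exact permutation p = 0.669). That contrast was 0.475 without XLF-/- clone 2 (exact permutation p = 0.560) and 2.24 without XLF-/- clone 1 (exact permutation p = 0.0238, adjusted p = 0.107). Ligase4-/- minus WT was 2.15 without Ligase4-/- clone 1 and 5.89 without clone 2. XLF-/-PAXX-/- minus Ligase4-/- was 2.26 without Ligase4-/- clone 1 (exact permutation p = 0.0476, adjusted p = 0.161) and -1.49 without clone 2.

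**Figure D2:**
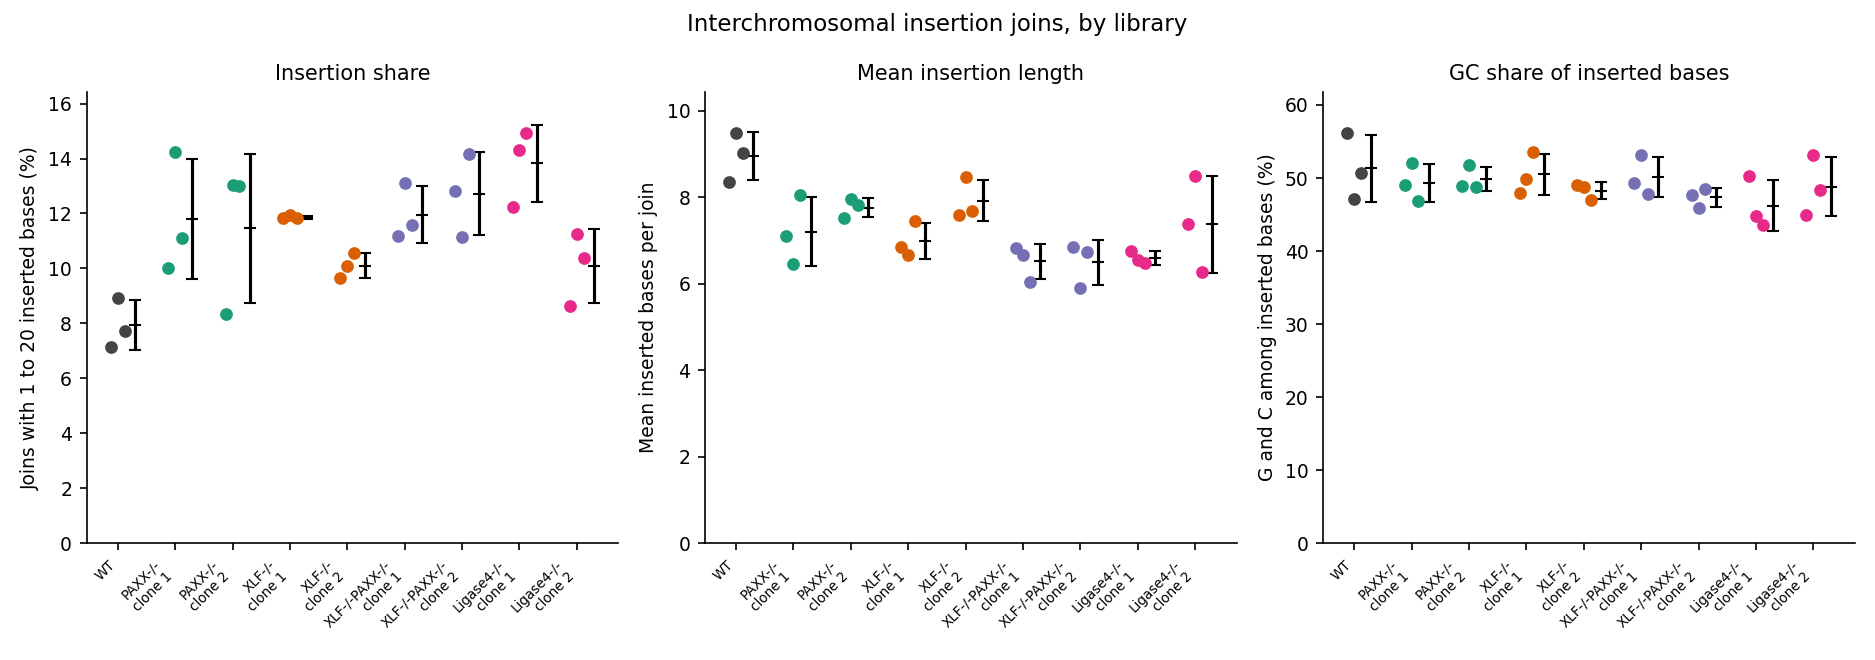
Percent of joins with 1 to 20 inserted bases (left), mean inserted bases per join (middle) and percent G and C among inserted bases (right), 1 point per library, with the mean and SD of the 3 libraries of each clone beside the points. WT has the lowest insertion shares as a clone, 7.94%, and the longest insertions, 8.96 bases, while mean GC shares run from 46.2% to 51.3%.

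Inserted bases were balanced in composition. Of 24821 inserted bases, 26.5% were A, 23.5% C, 25.0% G and 25.0% T, which is 48.5% GC. The 20 deposited mm9 letters around the same junctions were 48.1% GC. By clone, the GC share of inserted bases ran from 46.2% ± 3.53 in Ligase4-/- clone 1 to 51.3% ± 4.57 in WT (SD, n = 3 libraries each), and 52.5% of the variation lay between genotypes (exact permutation p = 0.460, adjusted p = 0.627). Leaving out 1 library at a time gave between 27.5% and 74.7%. The 7 library contrasts of GC share ranged from -3.81 points (Ligase4-/- minus WT, -11.2 to 2.74, exact permutation p = 0.226; -5.93 to -1.39 with 1 library left out) to 1.21 (XLF-/-PAXX-/- minus Ligase4-/-, -3.00 to 5.29, exact permutation p = 0.515).

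Composition moved with length. GC made up 44.5% of single inserted bases, 42.1% of bases in insertions of 2 to 5, 48.7% in those of 6 to 10 and 50.2% in those of 11 to 20. T was the commonest base in insertions of 2 to 5, at 30.1%, and made up 22.8% in those of 11 to 20. Of the 654 single-base insertions 187 were A, 182 C, 176 T and 109 G. The 25 in WT held 9 A, 9 C, 7 T and 0 G, and the other clones held between 4 and 31 G. None of the 654 equalled the next bait base or the base before the prey in mm9, a property that the alignment imposes, because an equal base would have been aligned. The next bait base at these ends was G in 194, T in 169, C in 158 and A in 133. The share of single bases was 11.8% ± 1.16 in PAXX-/- clone 2 and 17.6% to 21.9% by clone elsewhere (genotype exact permutation p = 0.880).

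Bait continuations were insertions of 2 or more bases that matched the bait beyond its aligned end except for exactly 1 changed base. They were 329 of 2872 insertions of that size, 11.5%. With libraries pooled, 6.06% were of this kind in WT. Clones 1 and 2 gave 8.73% and 20.3% for PAXX-/-, 12.1% and 7.75% for XLF-/-, 15.4% and 15.1% for XLF-/-PAXX-/-, and 8.49% and 9.33% for Ligase4-/-. Of the variation among clones 59.7% lay between genotypes (exact permutation p = 0.357, adjusted p = 0.602). It was 97.4% without PAXX-/- clone 1 (exact permutation p = 0.0214, adjusted p = 0.0918) and 94.6% without PAXX-/- clone 2 (exact permutation p = 0.0857). These permutations do not allow for the descent of the XLF-/-PAXX-/- clones from a PAXX-/- clone. Both XLF-/-PAXX-/- clones share a substituted bait base with PAXX-/- clone 2, as given below. A 2-base insertion needs only 1 matching base to count as a continuation. Their lengths stopped sharply, with 159 of 2 bases, 104 of 3, 43 of 4, 23 of 5 and 0 of the 682 insertions of 6 to 10 bases. Whether the alignment imposes this stop, as it does the mismatch of single bases, was not tested.

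PAXX-/- clone 2, XLF-/- clone 1 and the XLF-/-PAXX-/- clones carry substituted bait bases over all their joins, interchromosomal or not. C70T (the consensus base, the bait position, the read's base) was read in 40.02% of bait alignments of PAXX-/- clone 2, 37.8% of XLF-/-PAXX-/- clone 1 and 42.6% of XLF-/-PAXX-/- clone 2. G69A was read in 50.9% in PAXX-/- clone 2 and G81A in 47.0% in XLF-/- clone 1. Among the interchromosomal continuations, C70T accounted for 79, of which 18 were in PAXX-/- clone 2, 31 in XLF-/-PAXX-/- clone 1 and 27 in XLF-/-PAXX-/- clone 2. G69A accounted for 22, of which 20 were in PAXX-/- clone 2, and G81A for 3. A further 25 single T insertions stood at position 70, 17 of them in the XLF-/-PAXX-/- clones. The TTG and TTGTG reads printed above are of the C70T kind. The TTGTG read is from PAXX-/- clone 2. The TTG read is from Ligase4-/- clone 1, which is not among these clones and held 1 C70T continuation. Bait end 69, just before that position, held 12.3% and 15.9% of members in the XLF-/-PAXX-/- clones and 0.3003% to 6.79% by clone elsewhere. In XLF-/- clone 1, G81A was found in 1 continuation. Single A insertions at position 81 were not counted.

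Prey continuations, the mirror case in which the inserted bases matched the mm9 letters before the prey start except for exactly 1, numbered 303 of 1910 insertions of 2 to 10 bases. They followed the same lengths, 173 of 2 bases, 86 of 3, 33 of 4 and 11 of 5. None of the insertions of 6 to 10 bases was a prey continuation, and longer ones were not searched for them.

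A second accumulation of members on the bait, after bait end 69, was at position 79 (114664835, mm9). It held 173 members, 4.91%, against 228 of 26421 direct and microhomology joins, 0.863%. Of the 173 insertions 158 (91.3%) were the first bases of the inverted copy printed above. The template and the bait end are 20 bases apart, and the stretch between them, gcagccacagctgtggctgc, is its own reverse complement. An insertion there reads as the bait strand turning back on itself: the letters after position 79 are those of the complementary strand of positions 59 down to 50.

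**Figure D3:**
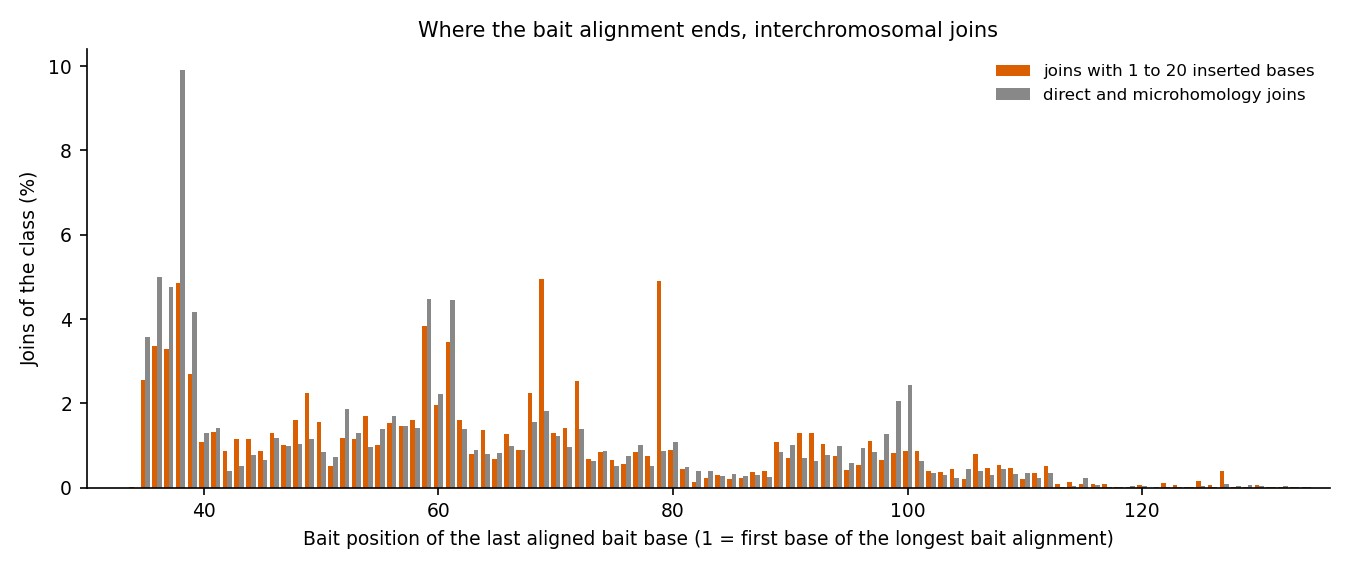
Percent of members (orange) and of direct and microhomology joins (grey) by the bait position of the last aligned bait base. Members stand above the other joins at positions 69 (4.96% against 1.83%) and 79 (4.91% against 0.863%), and below them at position 38 (4.85% against 9.90%).

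The inverted copies came in 2 length groups. There were 38 of 1 base, 20 of 2 and 19 of 3, then 1 of 4 and 0 of 5, and then 6 of 6 bases, 19 of 7, 28 of 8, 26 of 9 and 1 of 10. The shortest of these can match by coincidence of 1 or 2 letters, while 80 insertions matched over 6 bases or more. The 158 joins had 157 distinct prey positions on 19 chromosomes and all came from merged reads. Their prey alignments were short, with a median of 59.5 bases and a range of 25 to 408.

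The preys themselves resembled the bait. In the 80 joins with 6 or more copied bases, the first 10 prey bases were set against the next 10 letters of the inverted bait, and a mean of 5.78 were equal. At least 6 of 10 were equal in 45 joins (56.3%). In the other 602 members of 6 to 10 inserted bases the mean was 2.44, and 16 (2.66%) had at least 6. Over all 158 joins with inverted copies, the shortest included, the mean was 5.47 and 77 (48.7%) had at least 6. The inverted bait runs CTCTGGCTTACCATTTGCGG, and the printed read on chromosome 13 continues tgccatttctggaggtcaga after its 8 inserted bases. The first 10 prey bases were those of mm9 at the prey position in all 80 joins. Median prey length in the 80 was 46 bases against 122.5 in the other 602 members of 6 to 10 inserted bases. These joins were chosen after the letters were seen, so the comparison carries no test.

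Inverted copies were unevenly spread over libraries. PAXX-/- clone 1 library 2 held 28 among its 113 members (24.8%, exact Clopper-Pearson 95% interval 17.1% to 33.8%), whereas libraries 1 and 3 of the same clone held 5 of 91 and 3 of 86. XLF-/-PAXX-/- clone 1 held 19 of 156 and 21 of 145 in libraries 1 and 2 and 1 of 153 in library 3. XLF-/- clone 2 library 1 held 15 of 146. Ligase4-/- clone 1 held 0 of 316, which allows a share of up to 0.949%, 1 of 360 and 2 of 358. WT held 1 of 33, 0 of 45 (up to 6.67%) and 4 of 46, and none of these 5 was of 6 bases or more. Libraries of 1 clone thus differed from 3.49% to 24.8% in PAXX-/- clone 1 and from 0.654% to 14.5% in XLF-/-PAXX-/- clone 1. In the Sα window only 5 of 17681 insertions were of this kind, 0.0283%, and 5 of 15304 elsewhere on chromosome 12, against 158 of 3526 members, 4.48%.

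**Figure D4:**
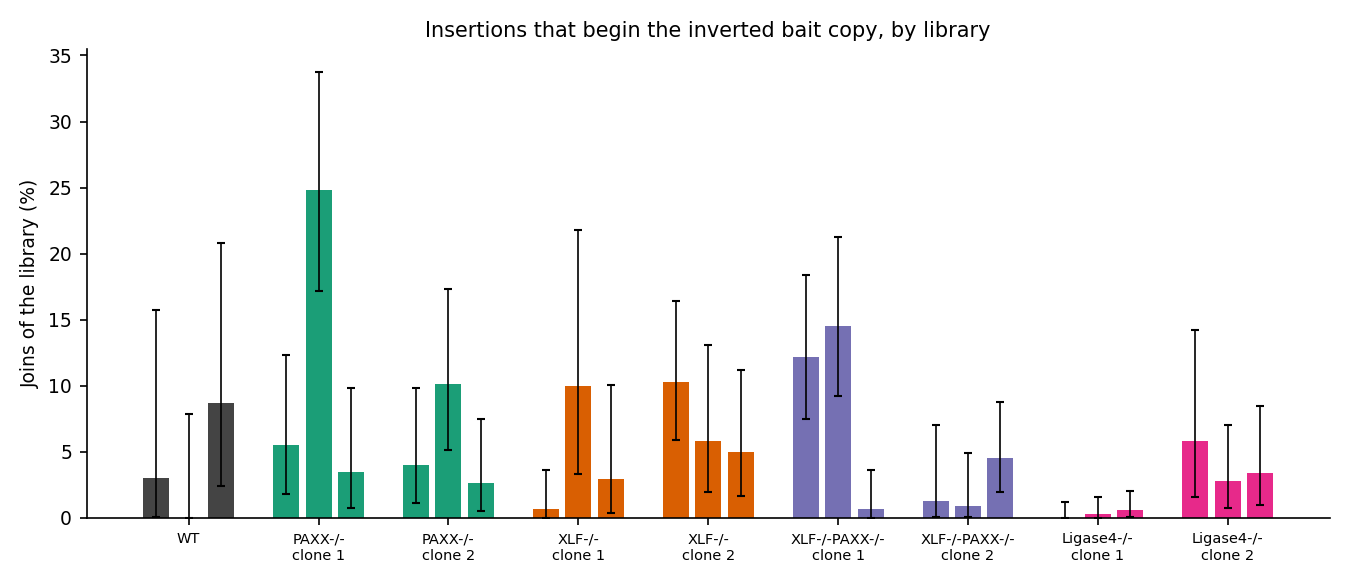
Percent of each library's members whose insertion begins the inverted bait copy at bait end 79, with exact 95% binomial intervals that cover counting error only, 3 libraries per clone. PAXX-/- clone 1 library 2 reaches 24.8%, and libraries 1 and 2 of XLF-/-PAXX-/- clone 1 reach 12.2% and 14.5%.

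Insertions of 6 bases or more were also searched, whole, in the rest of their own read. Of 1644 such insertions 177 (10.8%) had a copy, against 54 (3.28%) when the same letters were written backwards, which keeps base composition. Inverted copies from the bait were 94 against 5 backwards and include 79 at bait end 79. Direct copies from the prey were 65 against 41, direct copies from the bait 14 against 5, and inverted copies from the prey 11 against 4. Of the 65 direct prey copies 18 were runs of 1 base, and examples of the others were long switch-like repeats such as GAGCTGAGCTGAGCTGGG in XLF-/-PAXX-/- clone 1, before the prey gtgagctgagctgag on chromosome 17. The copied share by clone was 5.89% ± 4.01 in WT and 6.06% ± 2.65 and 6.25% ± 1.99 in Ligase4-/-. PAXX-/- clones had 17.4% ± 14.7 and 11.7% ± 11, XLF-/- clones 6.42% ± 2.34 and 18.5% ± 3.29, and XLF-/-PAXX-/- clones 17.8% ± 9.87 and 7.24% ± 1.15 (SD, n = 3 libraries each). The genotype test gave an exact permutation p = 0.535 (adjusted p = 0.657).

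A GA repeat opened many preys. GAGAGGAGAG lay within the first 20 prey bases of 205 members (5.81%) but of 175 of 26421 direct and microhomology joins (0.662%). There were 81 insertions that ended in CTGGAAT, at 81 distinct positions on 18 chromosomes, and 79 of them had this repeat in their prey. They ran from 7 to 20 bases, and longer ones extended the shorter to the left: CTGGAAT in 12 joins, ACTGGAAT in 8, AACTGGAAT in 9, TGAACTGGAAT in 14 and AGCTGAACTGGAAT in 7. The joined letters CTGGAATGAGAGGAG are part of the Sα region as sequenced here. They were present in 961 of 85155 preys aligned to the Sα window (chr12:114489501-114509500, mm9) and in 0 preys elsewhere on chromosome 12. Insertion and prey together read these letters in 79 of the 81 joins, although the prey was aligned to another chromosome.

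Preys with the GA repeat were 10.5% of members in WT. Clones 1 and 2 gave 19.0% and 10.2% for PAXX-/-, 5.15% and 3.904% for XLF-/-, 2.86% and 3.01% for XLF-/-PAXX-/-, and 4.64% and 1.52% for Ligase4-/-. Among direct and microhomology joins the clones had 0.139% to 1.29%. With these preys left out, insertion share in PAXX-/- exceeded WT by 2.90 points in place of 3.69, and mean length in XLF-/-PAXX-/- differed from WT by -2.36 bases in place of -2.45. Insertion share in XLF-/- minus PAXX-/- changed sign, from -0.646 to 0.539 points (exact permutation p = 0.481).

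Runs of C formed another such group. At least 10 C in a row lay within the first 20 prey bases of 63 members (1.79%) and of 65 direct and microhomology joins (0.246%). All 63 members were read pairs that had not been merged, as were 64 of the 65 direct and microhomology joins. Of the insertions in these members 26 were C only. Runs of A were in 13 members, of G in 17 and of T in 8. The clones held 3 to 12 members with a C run each, out of 124 to 1034 members.

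Most members stood apart from other members. The 3526 members had 3381 distinct junctions, and 74.9% were the sole member of their 10 kb window. There were 43 junctions seen in more than 1 clone, and 50.2% lay on the plus strand. Other joins in the same windows were not counted. No such values are given for direct and microhomology joins, so these counts do not set members apart from them. Chromosome 2 held the most, 8.39% of members against 7.44% of direct and microhomology joins. The motif AGCT, a target of the deaminase that starts switching and its own reverse complement, was in the 20 deposited letters of 10.8% of members, 10.4% of direct and microhomology joins and 34.1% of joins in the Sα window.

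The densest windows held few joins. The window chr2:179460000-179469999 held 30 members from 8 clones at 3 junctions, against 7 direct and microhomology joins. At 179467978, where 24 members from 8 clones joined, the insertions were of 17 kinds with a median length of 11 bases and came from 17 bait ends, and the median prey alignment was 28 bases. The prey there opens GTGAGCTGAG, another switch-like sequence. The window chr6:70670000-70679999 held 20 members from 7 clones at 19 junctions with a median insertion of 2 bases, and 84 direct and microhomology joins. The window chrX:96700000-96709999 held 12 members from 7 clones. Genes in these windows are not named, because mm9 gene positions were not used here.

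Members were compared with the direct and microhomology joins of the same clones and with insertions of 1 to 20 bases at Sα. These 8 comparisons were chosen after the data were seen. They used an exact permutation test that flips the sign of each of the 9 clone differences, whose smallest p is 0.00391, and were adjusted together. The 20 deposited mm9 letters were all in lower case, by usage the mark of repeats, at 43.3% ± 5.05 of members and 34.2% ± 2.24 of direct and microhomology joins (SD over 9 clones), higher in 9 of 9 clones (exact permutation p = 0.00391, adjusted p = 0.00446). The difference ran from 5.04 points in Ligase4-/- clone 1 to 15.7 in WT. Prey alignments averaged 123 bases against 142, shorter in 9 of 9 clones (exact permutation p = 0.00391, adjusted p = 0.00446). Bait alignments were 61.3 against 58.0 bases, longer in 8 of 9 clones (exact permutation p = 0.0117, adjusted p = 0.0117). Read pairs left unmerged were 14.9% against 2.33%, higher in 9 of 9 clones (exact permutation p = 0.00391, adjusted p = 0.00446), and were 26.1% of WT members. In members of merged reads alone, the mean length difference of XLF-/-PAXX-/- from WT was -2.53 bases (exact permutation p = 0.0119, adjusted p = 0.0643). It did not pass after adjustment.

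Insertions at other chromosomes were longer than those at Sα, 7.32 ± 0.807 against 4.37 ± 0.443 bases (SD over 9 clones), in 9 of 9 clones (exact permutation p = 0.00391, adjusted p = 0.00446). The difference was 5.36 bases in WT and 1.78 to 3.53 in the mutant clones. WT had the shortest insertions of the 9 clones at Sα, 3.59 bases, and the longest at other chromosomes, 8.96 bases. Whether this difference between sites differed between genotypes was not tested. Members here included those with inverted copies, GA repeat preys or C runs, and the comparisons with Sα were not repeated without them. Single bases made up 18.7% ± 2.97 of insertions at other chromosomes and 30.4% ± 4.42 at Sα, lower in 9 of 9 clones (exact permutation p = 0.00391, adjusted p = 0.00446). GC share was 49.1% ± 1.61 against 42.1% ± 1.92, higher in 9 of 9 clones, and bait continuations were 11.2% ± 4.68 against 20.5% ± 9.59, lower in 9 of 9 clones (for each, exact permutation p = 0.00391, adjusted p = 0.00446).

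**Figure D5:**
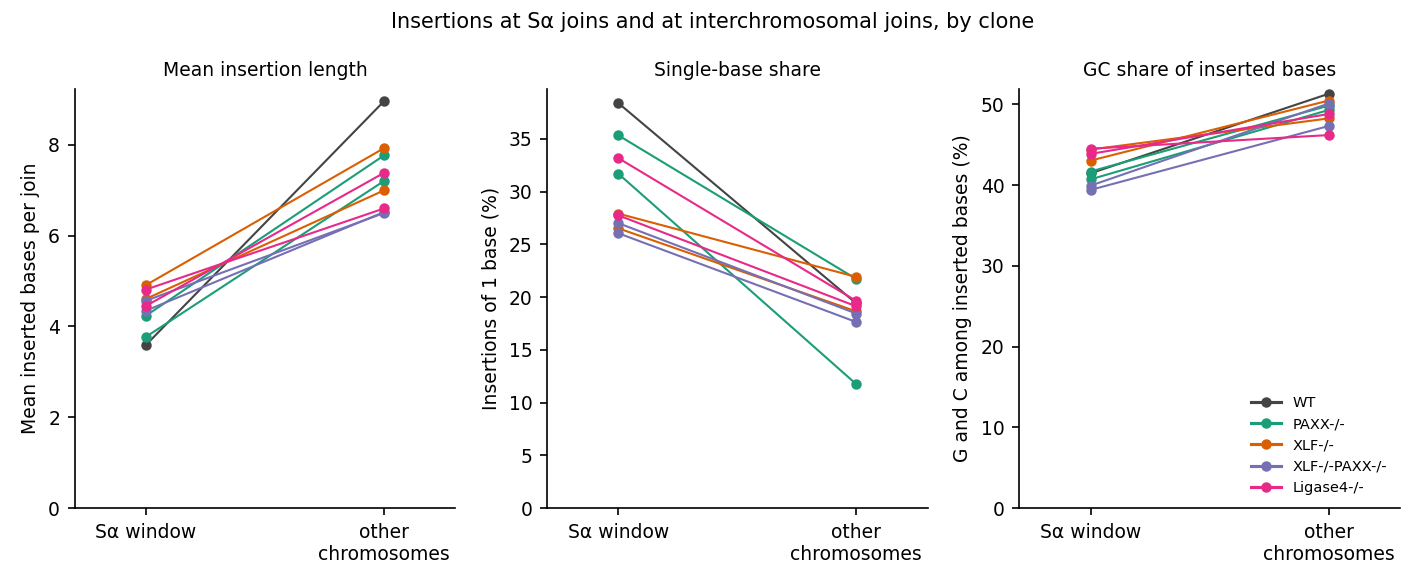
Mean inserted bases (left), percent of insertions of 1 base (middle) and percent G and C among inserted bases (right), at joins in the Sα window and at joins to other chromosomes, 1 line per clone. Length and GC share are higher at other chromosomes in all 9 clones and the single-base share is lower, and the WT line rises from 3.59 to 8.96 bases.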

How the data were processed

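The deposited tables list 1 join per line with alignment positions of bait and prey, the read and 20 mm9 letters. The tools named in the submitters' processing notes are Bowtie2 and the build mm9, and how the authors filtered the joins is not stated there. Members were chosen by the rule above. The members and lists were chosen with earlier results of these data known. Named insertions, windows and example reads followed rules of clone counts, length and copied letters. Libraries are told apart by name only, and the series calls the 3 of each clone biological replicates. Insertion share is members over joins with overlap of -20 or more. Genotypes were compared by exact permutation of the sum of squares over 945 splits of clones, and library contrasts by a two-sided exact permutation test, inverted to give intervals, stratified by run for XLF-/- minus PAXX-/-. Benjamini-Hochberg adjustment covered 27 tests at 0.05. The tests were tried on simulated data. The intervals of library contrasts reflect spread between libraries and not between clones. The binomial intervals and upper limits (3 counts) given for inverted copies cover counting error only. Lines were not collapsed by position. Python 3.11.15, numpy 2.4.6, pandas 2.3.3, scipy 1.17.1 and matplotlib 3.10.9 were used.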

Additional observations from a re-analysis of the deposited data

Results flagged for a closer look

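Within the 6 PAXX-/- libraries, clone 1 library 2 stood far from the others in the share of members with the inverted bait copy, at 24.8%. The same measure of distance set XLF-/- clone 2 library 2 apart from the other XLF-/- libraries in insertions of 11 to 20 bases, at 39.5% of its members. Chance alone puts about 1 in 20 such groups of libraries past this limit. More than 1 measure and more than 1 genotype were searched. Whether more libraries were set apart than this rate gives was not tested, so neither library is shown to be unusual.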

How the results depend on the processing

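None of the 27 tests passed after adjustment, 9 were under 0.05 before it, and none of 1260 values under 50 alternative settings passed, the lowest adjusted p being 0.0501. Of these values 54 changed sign, all in contrasts that had not passed. The other 1206 stayed on the same side of the 0.05 limit. Contrasts of joins pooled over libraries had no p-value and were counted as unchanged when they moved by less than the SD of the libraries. Shares of variation between genotypes have no sign to change. No paired analysis was possible because the library names carry no replicate numbers.

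With the limit at 10 bases, mean length differed by 0.375 in PAXX-/- minus WT, 0.135 in XLF-/- minus WT, 0.170 in XLF-/-PAXX-/- minus WT, 0.0350 in XLF-/-PAXX-/- minus XLF-/- and 0.238 in XLF-/-PAXX-/- minus Ligase4-/-, and GC share in XLF-/-PAXX-/- minus XLF-/- by 0.604. Mean length in XLF-/- minus PAXX-/- became 0.263 with single bases left out, 0.0263 with the 5 windows kept, 0.0102 without positions shared between clones, 0.258 without PAXX-/- clone 2 and 0.441 without XLF-/- clone 1. It became 0.0563 without the inverted copies at bait end 79, 0.0188 with merged reads only and 0.365 without GA repeat preys, 3 settings added after seeing the data.

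Insertion share in XLF-/- minus PAXX-/- became 1.83 with bait ends before the substituted positions, 0.539 without GA repeat preys and 0.239 without XLF-/- clone 2. In XLF-/-PAXX-/- minus Ligase4-/- it became -0.269 without bait continuations, -1.44 with bait ends before the substituted positions, -0.0483 without the inverted copies, -0.460 with joins pooled, -0.0593 with merged reads only and -1.49 without Ligase4-/- clone 2.

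GC share in PAXX-/- minus WT became 1.77 as a mean over insertions and 1.42 with bait ends before the substituted positions. In XLF-/- minus WT these settings gave 1.06 and 0.0794, and the second gave 1.59 in XLF-/-PAXX-/- minus WT. XLF-/- minus PAXX-/- became 0.413 without the inverted copies, 0.326 without shared positions, 0.0612 without PAXX-/- clone 2 and 0.897 without XLF-/- clone 2. XLF-/-PAXX-/- minus Ligase4-/- became -0.331 as a mean over insertions, -0.859 with merged reads only, -0.0950 without Ligase4-/- clone 1 and -0.182 without XLF-/-PAXX-/- clone 1. XLF-/-PAXX-/- minus XLF-/- became 0.325 without bait continuations, 1.51 with bait ends before the substituted positions, 0.00668 with joins pooled, 0.736 without XLF-/-PAXX-/- clone 2 and 0.449 without XLF-/- clone 1. The cause was not tested for any of these.

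Leaving out 1 library at a time gave -0.280 to 0.980 for insertion share in XLF-/-PAXX-/- minus Ligase4-/- and -0.261 to 0.168 for length in XLF-/- minus PAXX-/-. For GC share it gave -3.86 to 0.680 in PAXX-/- minus WT, -4.07 to 0.473 in XLF-/- minus WT, -1.54 to 0.188 in XLF-/-PAXX-/- minus XLF-/- and -1.02 to 0.381 in XLF-/- minus PAXX-/-. Among contrasts that kept their sign, length in XLF-/-PAXX-/- minus Ligase4-/- ran from -0.627 to -0.179, and was -0.874 without Ligase4-/- clone 1 and -0.0896 without clone 2. Of the variation between genotypes, the single-base share gave 4.80% to 48.8% with 1 library left out and 90.4% without PAXX-/- clone 1. The copied share gave 81.9% with bait ends before the substituted positions (exact permutation p = 0.0952, adjusted p = 0.289). WT libraries held 33 to 46 members each, so counting error limits every comparison with WT.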
